A study of Mus musculus with 36 samples.

Results

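The interstitial matrix is the scaffold of collagens, glycoproteins, elastic fibres and proteoglycans that lies between the cells of the heart. A list of 41 genes of this scaffold, with the chaperone and enzymes that fold, process and cross-link it, was followed in the mouse left ventricle on Affymetrix arrays. Members were taken by name as the probe sets annotated to 1 of these symbols, and the probe sets of a gene were averaged. Of the 41 genes, 38 had such a probe set, out of 12393 genes measured, and all 38 were kept, since no filter on low values was used. Fbn1, Spp1 and Loxl2 were not analysed here. Every mouse had had surgery, either transverse aortic constriction (TAC), which narrows the aorta and makes the left ventricle pump against a higher pressure, or the SHAM operation. Hearts were taken 8 weeks after surgery every 4 h over a day, at ZT03, ZT07, ZT11, ZT15, ZT19 or ZT23, from 3 mice at each time and surgery. That gave 12 groups of 3 and 36 arrays, 1 per mouse, with 18 for each surgery. The sources used here give no mouse strain, sex, age or light schedule, and no measure of how tight the constriction was in each mouse.

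Each deposited value is relative to the median of its probe set over the 18 arrays of the same surgery, on a scale taken as log2. No gene can be called higher or lower in TAC than in SHAM from such values. The course over the day within a surgery, the spread among mice of the same surgery and time, and the way genes varied together could be read. Precision is limited by the number of arrays. The tissue is bulk left ventricle, so fewer matrix-producing cells and less RNA in each such cell cannot be told apart.

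In the heart, interstitial matrix is made mainly by fibroblasts. Collagen chains are folded in the endoplasmic reticulum with the chaperone encoded by Serpinh1 (HSP47), secreted, trimmed by proteases with the help of enhancers such as Pcolce, and cross-linked by the lysyl oxidases. Type I and type III collagen form the main fibrils, type V collagen starts and limits their diameter, and small proteoglycans such as decorin and biglycan coat them. Pressure overload is known for fibroblast activation and interstitial fibrosis, and Myh7, the beta myosin heavy chain, is a classic marker of load on mouse heart muscle.

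Starts of transcription of 27 of the 38 members were found in the RefSeq promoter table (build GRCm38.p6), which holds 250 bases before to 50 bases after each start, and 5 of the 27 had several starts. The windows of the 4 members with the smallest p for a rhythm in SHAM that the table holds are shown, because all 4 passed the rhythm test described below. Capitals mark a TEAD motif (CATTCC) and a TATA box (TATAAA), both in the Col3a1 window.

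Serpinh1 (chr7:99353190-99353489, minus strand): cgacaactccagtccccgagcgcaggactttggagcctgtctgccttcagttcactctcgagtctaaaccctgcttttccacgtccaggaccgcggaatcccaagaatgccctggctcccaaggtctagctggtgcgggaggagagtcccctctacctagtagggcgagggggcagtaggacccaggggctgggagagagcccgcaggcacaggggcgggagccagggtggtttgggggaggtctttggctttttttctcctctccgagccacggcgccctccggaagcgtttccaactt
Col15a1 (chr4:47207762-47208061, plus strand): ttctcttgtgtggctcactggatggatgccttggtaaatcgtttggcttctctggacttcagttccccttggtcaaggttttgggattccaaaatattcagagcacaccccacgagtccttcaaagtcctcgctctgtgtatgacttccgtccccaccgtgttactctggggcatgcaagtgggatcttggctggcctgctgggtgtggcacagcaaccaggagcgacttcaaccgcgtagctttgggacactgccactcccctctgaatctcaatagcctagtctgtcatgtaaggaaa
Col6a3 (chr1:90843922-90844221, minus strand): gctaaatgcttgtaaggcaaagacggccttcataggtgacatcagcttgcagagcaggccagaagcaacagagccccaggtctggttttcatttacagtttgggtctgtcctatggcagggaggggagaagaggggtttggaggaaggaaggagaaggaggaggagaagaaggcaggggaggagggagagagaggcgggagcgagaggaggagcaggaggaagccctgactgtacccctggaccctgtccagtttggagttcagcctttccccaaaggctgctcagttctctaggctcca
Col3a1 (chr1:45311288-45311587, plus strand): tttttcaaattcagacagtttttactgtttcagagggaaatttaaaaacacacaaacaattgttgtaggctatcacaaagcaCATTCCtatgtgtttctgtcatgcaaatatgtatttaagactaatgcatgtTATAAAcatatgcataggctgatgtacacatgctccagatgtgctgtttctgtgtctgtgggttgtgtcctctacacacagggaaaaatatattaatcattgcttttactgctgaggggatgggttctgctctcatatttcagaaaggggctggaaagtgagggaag

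Short motifs were searched for on both strands of the windows of these 27 members and of all 27025 genes in the table. The clock E-box (CACGTG) was in the window of 1 member, against 8.1% of all genes, and the D-box (TTATGTAA) in 0, against 1.1%. The core site of the ROR and REV-ERB receptors (AGGTCA) was in 1 (18.1% of all genes), the heat shock pair (GAANNTTC) in 0 (9.0%), and the AP-1 site (TGANTCA) in 2 (9.0%). The TEAD motif was in 5 members (16.6%), the TATA box in 6 (15.7%) and the CCAAT box (CCAAT) in 9 (41.1%). Of the 12 members with a window and a 24-h rhythm in SHAM, 4 held a TATA box, 2 a TEAD motif and 2 a CCAAT box. The E-box was in 1 of these 12 and the AP-1 site in 1. The D-box, the ROR and REV-ERB site and the heat shock pair were in 0. These are matches of letters in a short window and say nothing about binding.

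A few libraries stood apart. Arrays with a mean above 0.5 for the thymocyte or airway markers were SHAM ZT11 replicate 3 (thymocyte, 1.84), SHAM ZT23 replicate 3 (airway, 0.58), TAC ZT23 replicate 1 (airway, 0.91) and TAC ZT03 replicate 3 (airway, 0.67). The mean of 5 atrial markers ran from -1.14 to 0.25 over SHAM arrays and from -1.23 to 0.69 over TAC arrays, while that of 10 cardiomyocyte markers stayed between -0.10 and 0.07 in SHAM and between -0.20 and 0.14 in TAC. The mean of 5 white adipocyte markers ran from -0.79 to 1.43 over SHAM arrays and from -0.72 to 1.66 over TAC arrays. It was above 0.5 on further arrays, among them TAC ZT11 replicate 3 (1.66) and TAC ZT15 replicate 3 (1.40). Because values were centred, whether any marker was present or absent could not be read.

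In SHAM hearts many matrix genes, most of the collagens among them, followed the time of day. Of the 38 members, 16 (42.1%) had a 24-h rhythm (a 24-h curve fitted in limma, adjusted p under 0.05), where 9.41% of all 12393 genes passed. At an unadjusted p under 0.05 it was 22 members, against 25.2% of all genes. Of these 16, 10 (62.5%) peaked between ZT22 and ZT4, a window that held 217 of the 1166 rhythmic genes overall (18.6%). That window was not among the planned tests and surrounds the fitted peaks of the rhythmic collagens, so these shares are a description. The median amplitude, from the mean to the peak of the fitted curve, was 0.11 over the members and 0.048 over all genes. An F-test for a change of any shape over the 6 times passed for 12 members (31.6%, against 5.69% of all genes), of which 11 were also rhythmic and the other was Thbs1. Without adjustment that count was 21, against 18.7% of all genes.

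Among the fibrillar collagens, Col1a1, Col3a1, Col5a1 and Col5a2 passed the rhythm test and Col1a2 did not. Col1a1, which encodes the alpha 1 chain of type I collagen, stood in the SHAM mice at 0.22, 0.44 and 0.20 at ZT03, -0.17, -0.11 and -0.01 at ZT07, -0.02, -0.20 and -0.19 at ZT11, -0.0023, -0.13 and -0.09 at ZT15, 0.0015, 0.09 and -0.09 at ZT19, and 0.28, 0.13 and 0.23 at ZT23. All 6 mice of ZT23 and ZT03 were above all 6 of ZT07 and ZT11, with no overlap. Its fitted amplitude was 0.21 ± 0.03 (SE, n = 18), with a peak at ZT0.42 and an adjusted p of 0.00143. Col3a1, the chain of type III collagen, stood at 0.36, 0.65 and 0.66 at ZT03, -0.49, 0.01 and 0.07 at ZT07, -0.08, -0.19 and -0.11 at ZT11, -0.11, -0.38 and -0.19 at ZT15, -0.01, 0.05 and -0.12 at ZT19, and 0.32, 0.32 and 0.54 at ZT23. Its mice at ZT23 and ZT03 were again above those at ZT07 and ZT11, and 1 mouse at ZT07 was the lowest of all. The amplitude was 0.38 ± 0.06 (SE), a peak-to-trough fold of 1.69, with the peak at ZT1.08 (adjusted p = 0.00112). The type V chains had smaller amplitudes, 0.14 ± 0.03 for Col5a1 and 0.14 ± 0.03 for Col5a2, and the same adjusted p of 0.0184. Col1a2, the partner chain of Col1a1 in type I collagen, had an amplitude of 0.11 ± 0.04 and an adjusted p of 0.217.

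Of the 8 other collagens, 4 were rhythmic in SHAM, namely the 3 chains of type VI collagen, which forms beaded filaments around cells, and Col15a1, a collagen of basement membrane zones. Col15a1 stood at 0.38, 0.64 and 0.52 at ZT03, -0.15, 0.08 and 0.10 at ZT07, -0.08, -0.0004 and -0.02 at ZT11, -0.15, -0.32 and -0.17 at ZT15, -0.0065, 0.0004 and -0.08 at ZT19, and 0.22, 0.31 and 0.27 at ZT23. The 3 mice at ZT03 were the highest of the 18 and the 3 at ZT15 the lowest. Its amplitude was 0.31 ± 0.04 with a peak at ZT2.08 (adjusted p = 0.000128). Col6a3 followed the same course, at 0.18, 0.35 and 0.59 at ZT03, -0.14, 0.07 and 0.10 at ZT07, -0.04, -0.08 and -0.11 at ZT11, -0.08, -0.24 and -0.23 at ZT15, -0.05, 0.01 and -0.01 at ZT19, and 0.27, 0.29 and 0.43 at ZT23. Its amplitude was 0.28 ± 0.04 (peak ZT1.45, adjusted p = 0.000141). Col6a1 and Col6a2 peaked near ZT2.41 and ZT2.64 with amplitudes of 0.18 and 0.16. Col8a1, Col14a1, Col16a1 and Col18a1 had amplitudes from 0.03 to 0.08 and did not pass.

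Of the 4 measured genes that fold, process and cross-link collagen, 3 were rhythmic, and Serpinh1 had the largest amplitude of all members. Serpinh1, the collagen chaperone gene whose start is shown above, stood in SHAM at 0.03, 0.20 and 0.28 at ZT03, -0.81, -0.59 and -0.59 at ZT07, -0.44, -0.47 and -0.61 at ZT11, 0.05, -0.10 and -0.28 at ZT15, 0.26, 0.42 and 0.24 at ZT19, and 0.25, 0.13 and 0.05 at ZT23. All 6 mice of ZT07 and ZT11 were below the other 12. The amplitude was 0.47 ± 0.06 (SE, n = 18), a peak-to-trough fold of 1.91, with a peak at ZT21.3 (adjusted p = 5.05e-05). Loxl1, a lysyl oxidase needed for elastic fibre upkeep, stood at 0.19, 0.30 and 0.39 at ZT03, -0.17, -0.0065 and 0.10 at ZT07, -0.37, -0.31 and -0.26 at ZT11, -0.16, -0.52 and -0.43 at ZT15, 0.02, 0.0065 and -0.14 at ZT19, and 0.12, 0.30 and 0.25 at ZT23. It had the smallest adjusted p of the members (4.38e-06), an amplitude of 0.35 ± 0.03 and a peak at ZT1.28. Pcolce, the enhancer of procollagen trimming, had an amplitude of 0.14 with its peak at ZT20.6 (adjusted p = 0.00770). Lox, the main collagen cross-linking enzyme, stayed between -0.10 and 0.12 on all 18 SHAM arrays and did not pass (adjusted p = 0.520).

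**Figure D1:**
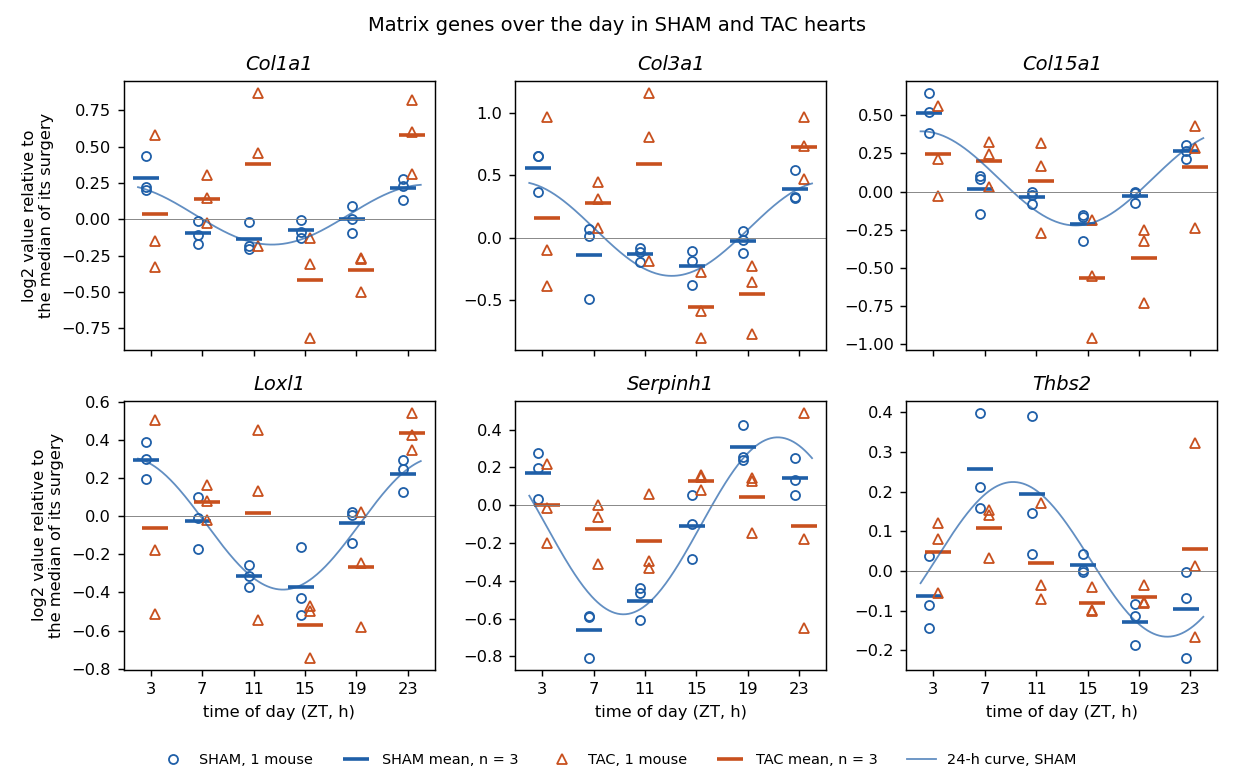
Values of 6 matrix genes against time of day (ZT, h) on the log2 scale, relative to the median of each surgery. Circles are single SHAM mice, triangles single TAC mice, bars the means of 3 mice, and the line the 24-h curve fitted to SHAM. Col1a1, Col3a1, Col15a1 and Loxl1 are highest in SHAM at ZT23 and ZT03, Serpinh1 is lowest at ZT07 and ZT11, and Thbs2 is highest there. On average over the times, TAC mice lie farther apart than SHAM mice for the first 5 genes named, and not for Thbs2.

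Thbs2 ran the other way. It encodes thrombospondin 2, a matricellular protein that restrains matrix breakdown and vessel growth, and stood in SHAM at 0.04, -0.09 and -0.14 at ZT03, 0.40, 0.16 and 0.21 at ZT07, 0.15, 0.39 and 0.04 at ZT11, -0.0031, 0.04 and 0.0031 at ZT15, -0.08, -0.19 and -0.11 at ZT19, and -0.0012, -0.07 and -0.22 at ZT23. The 6 mice at ZT07 and ZT11 were all above 0, and at ZT19 all 3 were below 0. It peaked at ZT9.20 with an amplitude of 0.20 ± 0.03 (adjusted p = 0.00280). Its relative Thbs1, an activator of latent TGF-beta, passed the test for any shape over the day (adjusted p = 0.0196) but not the 24-h curve (0.0812). The SHAM mice of ZT03 had Thbs1 at 0.12, 0.39 and 0.31, and those of ZT11 had it at -0.11, -0.09 and -0.38. Fn1 (fibronectin), Tnc (tenascin C) and Sparc, a collagen-binding secreted protein, did not pass, with amplitudes of 0.01, 0.04 and 0.17.

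Of 7 measured genes of elastic fibres and microfibrils, 2 were rhythmic in SHAM. Eln, which encodes elastin, stood at 0.0069, 0.19 and 0.31 at ZT03 and 0.10, 0.23 and 0.19 at ZT23, against -0.04, -0.18 and -0.25 at ZT11. Its amplitude was 0.17 ± 0.03, with a peak at ZT0.61 (adjusted p = 0.00232). Fbln1 also passed, with a peak at ZT20.3 (amplitude 0.16, adjusted p = 0.0255), while Fbln2, Mfap2, Mfap5, Ltbp2 and Efemp1 did not. Of 8 proteoglycans and Dpt, a matrix protein that binds decorin, 2 of 9 passed. These were Aspn, a regulator of TGF-beta that peaked at ZT16.2, and Dpt, with a peak at ZT21.7. Their adjusted p-values of 0.0333 and 0.0346 were the closest to the threshold.

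**Figure D2:**
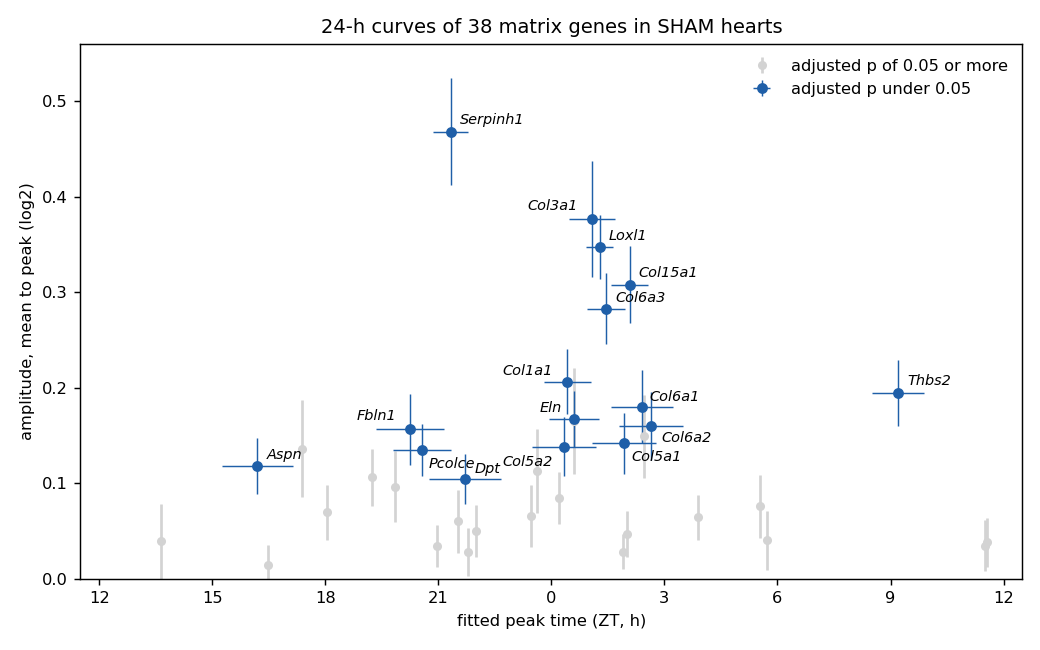
Amplitude (log2, mean to peak) against fitted peak time (ZT, h) of the 38 members in SHAM, with standard errors as bars. Blue points passed the rhythm test and grey points did not. Of the 16 blue points, 10 lie between ZT22 and ZT4, Serpinh1 has the largest amplitude at 0.47, and Thbs2 stands alone at ZT9.20.

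The ordering of SHAM mice could be seen without a curve. For 9 of the 38 members, every mouse of ZT23 and ZT03 was above every mouse of ZT07 and ZT11, a split that was chosen after the values had been seen and that 1.28% of all genes showed. The 9 were Col1a1, Col3a1, Col5a2, Col6a3, Col15a1, Loxl1, Pcolce, Serpinh1 and Prelp.

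Col6a3, Col15a1 and Loxl1 kept their rhythm call in 32 of 32 alternative settings and Serpinh1 in 31 of 32. The other calls depended more on the mice and the model: 4 members passed without the mice of replicate number 2, and 5 with 1 estimate of the spread over both surgeries. Leaving out 1 array gave 14 to 18 rhythmic members. The calls of Col5a1 and Col6a2 were lost without SHAM ZT03 replicate 2, that of Col6a2 also without SHAM ZT15 replicate 2, and that of Fbln1 without SHAM ZT07 replicate 2, SHAM ZT11 replicate 2 or SHAM ZT23 replicate 3. Aspn and Dpt each kept their call in 12 of 18 such fits: Aspn lost it without SHAM ZT03 replicate 1 or 3, ZT07 replicate 1, ZT15 replicate 1 or 3, or ZT19 replicate 2, and Dpt without SHAM ZT07 replicate 1 or 2, ZT11 replicate 2, ZT19 replicate 2, or ZT23 replicate 1 or 3. In the any-shape test SHAM ZT03 replicate 3 alone took the count from 12 to 7, with Col5a2, Col6a1, Col6a2, Eln and Thbs1 lost. There, Col6a1, Col6a2 and Thbs1 were also lost without SHAM ZT03 replicate 2, Thbs2 without SHAM ZT07 replicate 1, and Eln in all but 6 of the 18 fits.

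Markers of other cells also moved with the time of day in SHAM. Of 9 endothelial markers, 5 (55.6%) were rhythmic themselves, against 9.41% of all genes. The mean of the 9 was 0.09 ± 0.07 at ZT23 and 0.03 ± 0.03 at ZT03 against -0.10 ± 0.04 at ZT07 and -0.16 ± 0.08 at ZT11 (SD, n = 3). With that mean as a covariate, an alternative added after the data had been seen, 9 members stayed rhythmic, and Serpinh1, Thbs2, Col5a1, Col5a2, Fbln1, Dpt and Pcolce were lost. Atrial markers were also low at these times, with means of -0.72 ± 0.39 at ZT07 and -0.30 ± 0.50 at ZT11, and 12 members passed with atrial and white adipocyte markers as covariates.

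In TAC hearts 0 of the 38 members passed the rhythm test on the 18 TAC arrays, where 1.15% of all genes passed, and 6 had an unadjusted p under 0.05 (13.6% of all genes). For a course of any shape 0 passed, against 0.549% of all genes, while 17 had an unadjusted p under 0.05 (44.7%, against 12.4% of all genes). Col15a1 was nearest to a call, with an amplitude of 0.42 ± 0.09 (SE, n = 18) and an adjusted p of 0.0513. Its TAC values were -0.03, 0.21 and 0.56 at ZT03, 0.24, 0.33 and 0.03 at ZT07, -0.27, 0.17 and 0.32 at ZT11, -0.55, -0.19 and -0.96 at ZT15, -0.33, -0.25 and -0.73 at ZT19, and -0.24, 0.28 and 0.43 at ZT23. The 3 mice of ZT15 and the 3 of ZT19 were all below 0, while the mice of ZT03, ZT11 and ZT23 fell on both sides of it. A call depended on single mice here, since leaving out TAC ZT03 replicate 1, TAC ZT11 replicate 2, TAC ZT11 replicate 3, TAC ZT23 replicate 1 or TAC ZT23 replicate 3 gave 1 rhythmic member.

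The TAC values of the collagens show how far mice of the same time stood apart. Col1a1 was at -0.33, -0.15 and 0.58 at ZT03, 0.15, 0.31 and -0.03 at ZT07, -0.18, 0.45 and 0.87 at ZT11, -0.31, -0.13 and -0.82 at ZT15, -0.26, -0.27 and -0.50 at ZT19, and 0.82, 0.31 and 0.60 at ZT23. At ZT03 and at ZT11 the 3 mice ran from clearly below to clearly above 0. All 3 were above 0 at ZT23 and below 0 at ZT15 and ZT19. The mouse above 0 at ZT03 was TAC ZT03 replicate 3, and the highest at ZT23 was TAC ZT23 replicate 1. Both are arrays with airway transcripts. Col3a1 had the same pattern, at -0.38, -0.10 and 0.97 at ZT03, 0.31, 0.44 and 0.07 at ZT07, -0.18, 0.81 and 1.15 at ZT11, -0.59, -0.28 and -0.80 at ZT15, -0.35, -0.23 and -0.77 at ZT19, and 0.97, 0.47 and 0.73 at ZT23. Thbs1 had the smallest adjusted p for a TAC course of any shape (0.0776), with its 3 ZT23 mice at 0.84, 0.49 and 1.02 and its ZT15 mice at -0.24, -0.09 and -0.62. Without TAC ZT11 replicate 1, whose Col1a1 and Col3a1 values were the lowest at that time, 6 members passed the any-shape test, and without TAC ZT03 replicate 3 or TAC ZT03 replicate 1 the count was 3 and 1.

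Serpinh1 had the smallest p of the members for a difference of rhythm between the surgeries, though it did not pass. In TAC it stood at -0.20, -0.01 and 0.22 at ZT03, 0.0014, -0.06 and -0.31 at ZT07, -0.33, -0.30 and 0.06 at ZT11, 0.16, 0.08 and 0.15 at ZT15, 0.15, 0.13 and -0.15 at ZT19, and -0.65, -0.18 and 0.49 at ZT23. The trough that all 6 SHAM mice showed at ZT07 and ZT11 was shallow here, and the mice of ZT23 spread over more than a unit. The lowest mouse of ZT23 was TAC ZT23 replicate 1, an array with airway transcripts. The difference of rhythm had an unadjusted p of 0.00157 and an adjusted p of 0.494. Over the members, 0 of 38 passed the difference of rhythm (0.0484% of all genes did), with 3 at an unadjusted p under 0.05 (6.27% of all genes), Serpinh1, Col6a3 and Thbs2. A difference in the course of any shape passed for 0 members (0.0161% of all genes), with 15 of 38 at an unadjusted p under 0.05 against 5.57% of all genes. The smallest p was that of Thbs1, at 0.000178 before adjustment and 0.0960 after. That test gave 4 members without TAC ZT11 replicate 1 and 1 without TAC ZT03 replicate 3 or TAC ZT23 replicate 3. A rhythm that passed in SHAM and not in TAC was therefore not shown to differ between them.

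The spread among mice of the same surgery and time was compared between TAC and SHAM. A larger spread of matrix genes after TAC was already known from earlier results of these same data, so this comparison describes it further. For each gene the SD of the 3 mice was taken in each of the 12 groups, and the log2 SDs of the 6 TAC groups were compared with those of the 6 SHAM groups. The mean log2 SD was higher in TAC for 36 of 38 members, with a median log2 ratio of 1.24. Over all genes 71.3% were higher, and the median was 0.323. For 16 of the 38 members the TAC SD was higher at all 6 times, which held for 5.57% of all genes. In limma 1 member passed (0.0161% of all genes did), and 21 of 38 had an unadjusted p under 0.05, against 8.31% of all genes.

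That member was Mfap5, which encodes a glycoprotein of microfibrils. In SHAM its values were 0.03, 0.10 and 0.11 at ZT03, -0.05, -0.10 and -0.03 at ZT07, 0.15, -0.01 and 0.05 at ZT11, 0.10, 0.04 and 0.10 at ZT15, -0.03, 0.0081 and -0.09 at ZT19, and -0.04, -0.10 and -0.04 at ZT23. In TAC they were -0.75, -0.36 and 0.59 at ZT03, -0.05, 0.49 and -0.05 at ZT07, -0.19, 0.88 and 1.08 at ZT11, 0.04, -0.15 and -0.77 at ZT15, 0.36, -0.41 and -0.55 at ZT19, and 1.25, 0.76 and 0.64 at ZT23. The 18 SHAM mice lay within a narrow band around 0, and at each of the TAC times at least 1 mouse lay outside it. The SD within a group, as a geometric mean over 6 times, was 0.0445 in SHAM and 0.464 in TAC, a log2 ratio of 3.38 ± 0.48 (SE, adjusted p = 0.00101). The call was lost without TAC ZT23 replicate 1, TAC ZT19 replicate 1 or TAC ZT07 replicate 2, without the 4 arrays with airway or thymocyte transcripts, and with the probe set of largest SD.

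Each class of matrix gene held members with a wide TAC spread. In the cross-linking group Lox, which barely varied in SHAM, stood in TAC at -0.11, -0.10 and 0.30 at ZT03, -0.05, 0.15 and -0.0029 at ZT07, -0.27, 0.48 and 0.82 at ZT11, -0.02, -0.24 and -0.12 at ZT15, 0.06, -0.0031 and -0.12 at ZT19, and 0.97, 0.31 and 0.47 at ZT23. Mice of 1 group had an SD of 0.030 after SHAM and 0.191 after TAC surgery (log2 ratio 2.67 ± 0.60, adjusted p = 0.162). The 4 highest values came from mice of ZT11 and ZT23. The highest was that of TAC ZT23 replicate 1, an array with airway transcripts. Serpinh1 had the lowest ratio of that group, 0.61 ± 0.53, and Pcolce the second highest, 1.14 ± 0.57. Among the fibrillar collagens the log2 ratio ran from 0.79 for Col5a1 to 1.71 for Col1a1 and 1.99 for Col5a2. Among the others it was highest for Col8a1 (2.23), a short-chain collagen of vessel walls, and Col15a1 (1.96), and lowest for Col14a1 (-0.03), which sits on the surface of fibrils.

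In the elastic fibre group Fbln2 followed Mfap5 with a log2 ratio of 2.34 ± 0.64, and Mfap2 was lowest at 0.24 ± 0.65. Among proteoglycans Fmod, which binds collagen fibrils, had 2.30 ± 0.58 and Vcan, the large proteoglycan versican, 2.14 ± 0.59. Dpt was lowest in that class at 0.93. The matricellular genes ranged from Thbs1 (1.27) and Sparc (1.16) down to Tnc (0.03) and Thbs2 (-0.15). Thbs2 and Col14a1 were the 2 members with a lower mean log2 SD in TAC. Taken by probe set, 69 of the 71 probe sets of the members had a higher mean log2 SD in TAC. Quantile normalization of the arrays left the median log2 ratio of the members at 0.968, and leaving out single arrays kept it between 1.07 and 1.49.

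**Figure D3:**
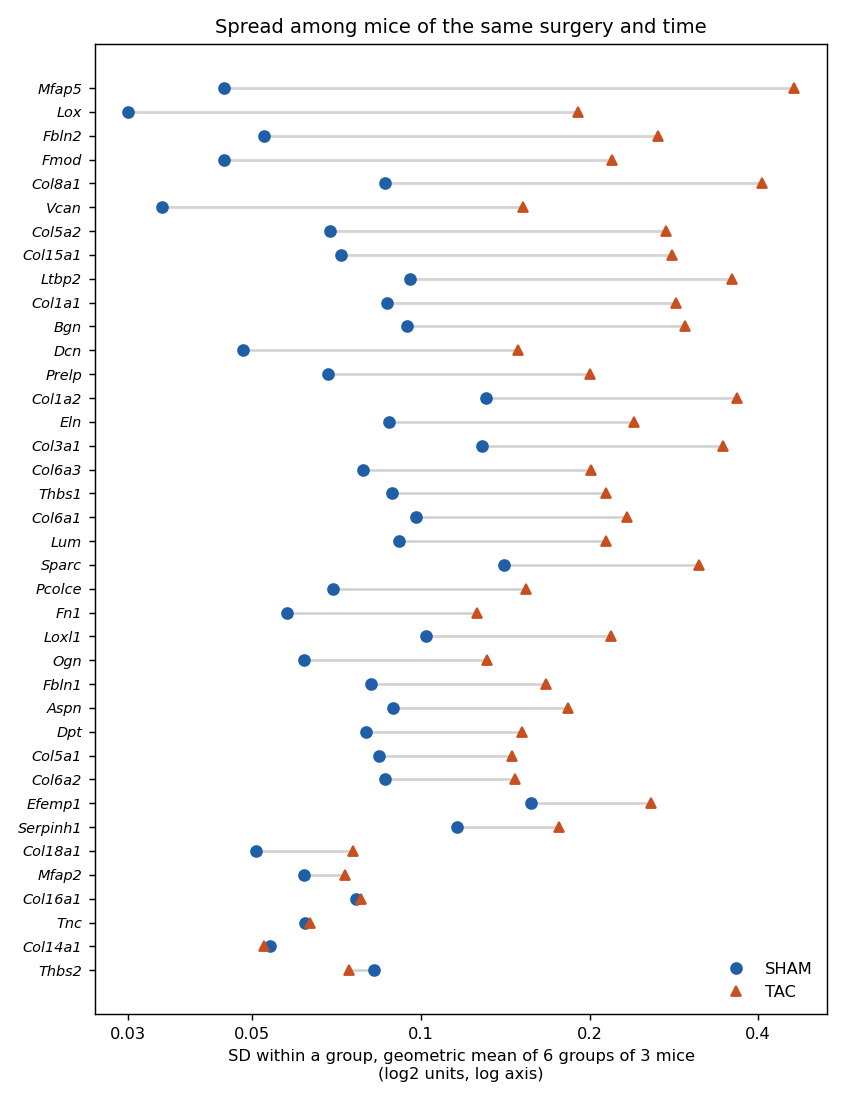
SD among the 3 mice of a group, as a geometric mean over the 6 times (log2 units, log axis), in SHAM (circles) and TAC (triangles) for each of the 38 members, ordered by the ratio. In 36 of 38 the triangle lies to the right; Mfap5 goes from 0.044 to 0.464, and Thbs2 and Col14a1 are the exceptions.

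The members varied together. Each array's deviation from its group mean was taken, which removes time of day but not what arrays of 1 replicate number share. The genes were correlated over all 18 arrays of a surgery, those with airway or thymocyte transcripts included. These coefficients are a description, since the arrays share the centring of their groups. The median over the 703 pairs of members was 0.287 in SHAM and 0.654 in TAC, while over all pairs of genes it was 0.02 and 0.01. A coefficient above 0.5 was found for 25.7% of member pairs in SHAM and 66.7% in TAC, against 8.4% and 9.2% of all pairs. In TAC the closest pairs were Bgn with Mfap5 (0.984) and the 2 chains of type I collagen, Col1a1 with Col1a2 (0.982). In SHAM the type I chains had 0.717, and the closest pair was Col6a1 with Sparc (0.924).

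Some members varied closely with the others in TAC alone, and some were loosely or inversely tied to them. Lox had a coefficient of -0.433 with the mean of the other members in SHAM, where it hardly varied, and of 0.811 in TAC. Ltbp2, which encodes a microfibril-bound relative of the latent TGF-beta binding proteins, had 0.181 and 0.905. Thbs2 ran against the others in SHAM (-0.668) and was loosely tied to them in TAC (0.214). Efemp1, a fibulin of elastic tissue, had -0.001 and 0.152, and Col18a1, a basement membrane collagen, 0.423 and 0.238. Serpinh1 was the reverse of most members, with 0.568 in SHAM and 0.276 in TAC. The differences between the surgeries in these coefficients were not tested.

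**Figure D4:**
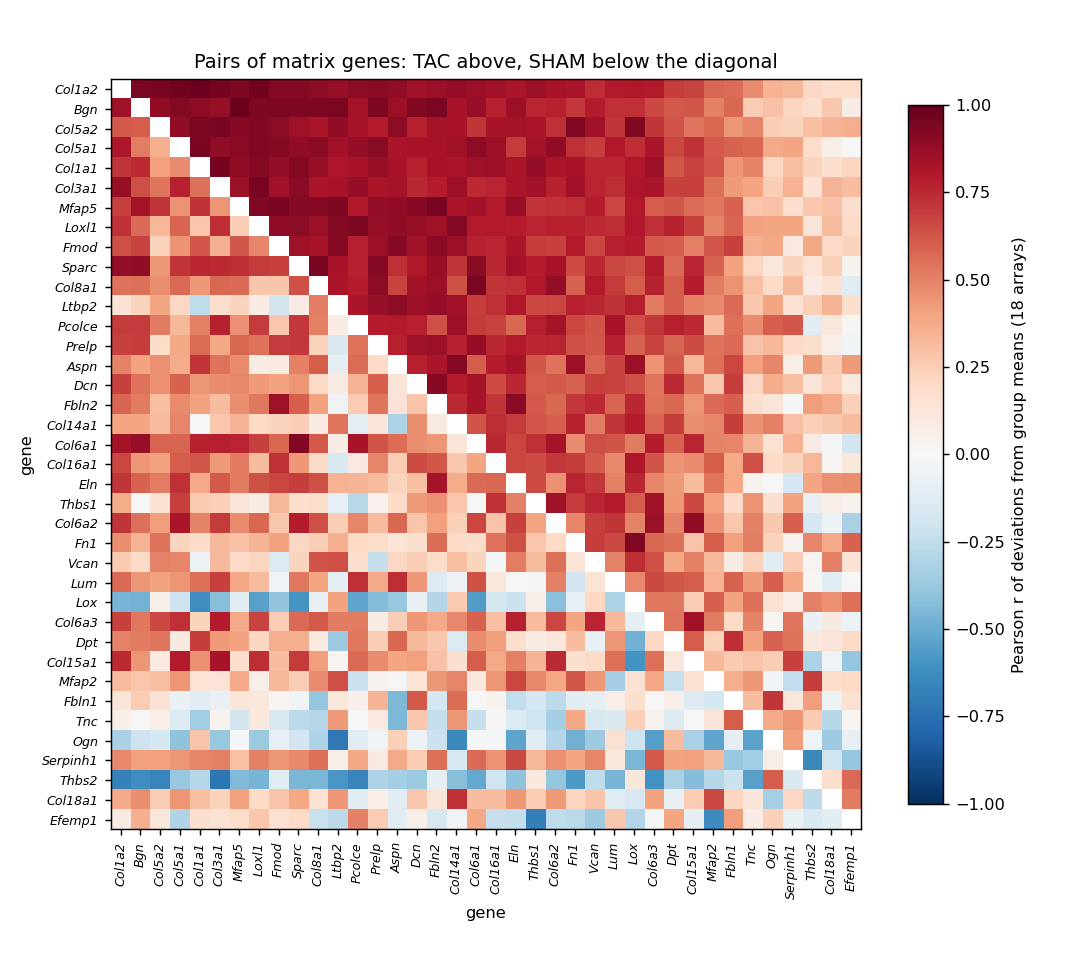
Pearson coefficient of each pair of the 38 members over the 18 arrays of a surgery, after subtracting group means, with TAC above and SHAM below the diagonal (red positive, blue negative). The TAC side is mostly red (66.7% of pairs above 0.5) and the SHAM side is paler (25.7%), with Lox, Thbs2 and Ogn negative against many members in SHAM.

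Myh7 was used to ask whether mice with more of this load marker also had more matrix RNA. Among mice of the same group Myh7 had an SD of 0.77 after TAC and 0.12 after SHAM surgery. The TAC mice had Myh7 at -1.70, -0.54 and 0.32 at ZT03, 0.41, 0.28 and -0.17 at ZT07, -0.32, 1.17 and 0.74 at ZT11, -0.30, -0.28 and -1.95 at ZT15, 0.17, -1.44 and -1.31 at ZT19, and 1.54, 1.62 and 0.96 at ZT23. For some members, TAC mice of the same time with more Myh7 had more of the gene's RNA. The slope on Myh7, with time as a factor, was above 0 for 37 of 38 members, against 43.5% of all genes, and 13 members passed (34.2%), all with a positive slope, against 1.42% of all genes and 0.872% with a positive slope. A slope of 0.5 means that a gene differed by 0.5 log2 units between mice that differed by 1 unit in Myh7.

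Bgn, the proteoglycan biglycan, had the firmest relation. Its TAC values were -0.67, -0.25 and 0.38 at ZT03, -0.05, 0.15 and -0.13 at ZT07, -0.26, 0.49 and 0.55 at ZT11, 0.02, -0.03 and -0.60 at ZT15, 0.20, -0.33 and -0.42 at ZT19, and 0.62, 0.32 and 0.30 at ZT23. The mouse with the most Myh7 also had the most Bgn at ZT03 and ZT19, and not at the other times. The mouse with the least Myh7 had the least Bgn at every time but ZT19. The slope was 0.43 ± 0.05 (SE, n = 18, adjusted p = 0.000539). Prelp, a proteoglycan that ties basement membranes to collagen, had 0.32 ± 0.04 (adjusted p = 0.00191) and Mfap5 0.58 ± 0.08 (0.00230). The steepest slope was that of Ltbp2, 0.62 ± 0.10 (adjusted p = 0.00396), followed by Col8a1 with 0.58 ± 0.09 (0.00341). Sparc, Fbln2, Col6a1, Fmod, Dcn (decorin), Loxl1, Col1a2 and Col5a1 also passed, with slopes from 0.20 to 0.46. Col1a1 and Col3a1 had slopes of 0.33 ± 0.08 and 0.40 ± 0.11 and missed the threshold (adjusted p = 0.0635 and 0.0952).

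Other members had slopes near 0. Serpinh1 had a slope of 0.05 ± 0.09, Thbs2 of 0.01 ± 0.04, Tnc of 0.0069 ± 0.05 and Col18a1 of 0.03 ± 0.04. Efemp1 was the 1 member with a negative slope, -0.09 ± 0.12. None of these 5 passed, with adjusted p-values between 0.864 and 0.986. In SHAM, where Myh7 varied little, 0 members and 0 of 12392 genes passed (0% in both), with 1 member, Efemp1, at an unadjusted p under 0.05 (3.2% of all genes). The slope was above 0 for 26 members there, against 48.3% of all genes. Whether the TAC and SHAM slopes differed was not tested.

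Quantile normalization left 2 members called, Bgn and Ltbp2. Leaving out all mice of a replicate number left 0 to 8 of the 13 calls, and leaving out 1 array gave 10 to 16, with Col1a2, Col5a1 and Loxl1 lost without TAC ZT03 replicate 1, TAC ZT11 replicate 1 or TAC ZT03 replicate 3, the first 2 also without TAC ZT15 replicate 3, and Col6a1 lost without the last. Without the 4 arrays with airway or thymocyte transcripts 10 members passed.

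**Figure D5:**
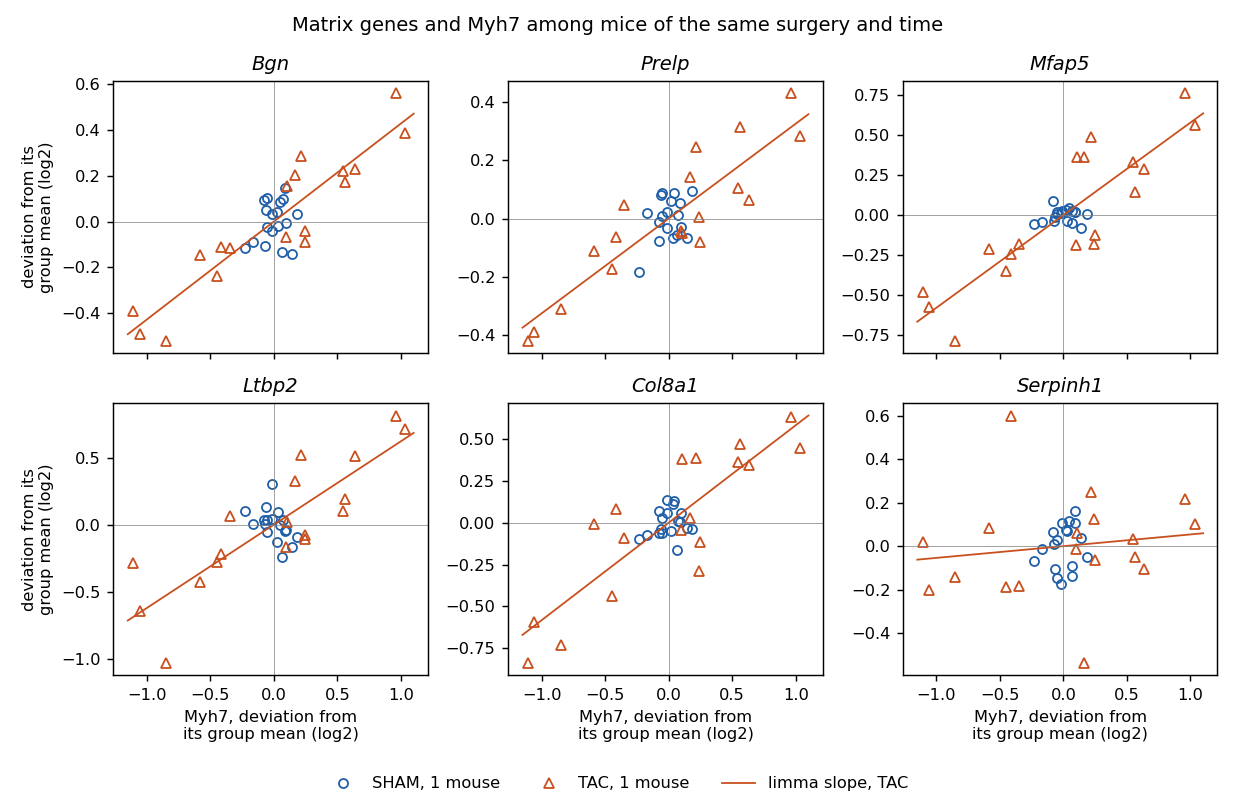
Deviation of 6 matrix genes from their group mean (log2) against the deviation of Myh7 (log2), 1 point per mouse, with SHAM as circles and TAC as triangles. The line is the limma slope in TAC. Bgn, Prelp, Mfap5, Ltbp2 and Col8a1 rise with Myh7 among TAC mice, Serpinh1 does not pass (slope 0.05), and the SHAM mice cluster at the centre because Myh7 varied little there.

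Pdgfra, a growth factor receptor gene that marks fibroblasts, was used in the same way to ask whether matrix RNA followed it. In TAC 0 of 38 members passed (0.0888% of all genes, 0.0646% with a positive slope). A positive slope was found for 35 members, against 38.7% of all genes, and 18 had an unadjusted p under 0.05 (14.5% of all genes). In SHAM 0 passed (0% of all genes), with 3 at an unadjusted p under 0.05 (5.98% of all genes) and 34 with a positive slope (60.2% of all genes). Pdgfra had an SD within groups of 0.13 in TAC and 0.074 in SHAM. Without TAC ZT11 replicate 1, TAC ZT11 replicate 2 or TAC ZT15 replicate 3, 1 member passed in TAC.

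Genes that work on the matrix but are not part of it were read from lists chosen alongside the members. Of 10 measured genes of collagen modification, 2 (20%) were rhythmic in SHAM, against 9.41% of all genes. They were the prolyl 4-hydroxylase subunits P4ha1 (amplitude 0.41 ± 0.05, peak ZT20.4) and P4ha2 (0.23 ± 0.03, peak ZT19.0). These enzymes hydroxylate collagen chains while Serpinh1 chaperones them, and all 3 peaked between ZT18 and ZT22. None of the 10 (0) passed on Myh7 in TAC, where 1.42% of all genes did. Of 13 genes of matrix turnover, 4 (30.8%) were rhythmic in SHAM, against 9.41% of all genes. Among the 4 were the protease inhibitors Timp3 (0.52 ± 0.03, peak ZT12.8) and Timp4 (0.75 ± 0.08, peak ZT11.1). These inhibitors peaked on the other side of the day from Col1a1, Col3a1 and the type VI chains, which peaked from ZT0.42 to ZT2.64. The collagenase gene Mmp14 peaked at ZT1.23 and Adamts5, a proteoglycan-cleaving protease gene, at ZT4.50.

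The TGF-beta pathway, the best known inducer of matrix genes, had 5 of 17 genes rhythmic in SHAM, with peaks spread over the day. That is 29.4%, against 9.41% of all genes. Ski, a repressor of SMAD signalling, peaked at ZT20.6 with an amplitude of 0.16 ± 0.02, and the coreceptor gene Tgfbr3 at ZT12.2. On Myh7 in TAC 5 of 17 (29.4%) passed, all upward, against 1.42% of all genes. They were the ligands Tgfb2 (0.22 ± 0.03) and Tgfb3 (0.20 ± 0.05), the receptor Tgfbr2, the latency protein Ltbp4 and the target Ccn2 (0.57 ± 0.12). Of the 13 turnover genes Mmp2 (0.33 ± 0.05) and Timp2 (0.21 ± 0.04) passed there (15.4%).

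Markers of cell types were set beside the members. Of 7 measured markers of activated fibroblasts, 4 (57.1%) rose with Myh7 in TAC, where 1.42% of all genes passed. Of the 7, Ltbp2 is a member and Ccn2 also a TGF-beta gene. Postn, which encodes periostin and marks activated fibroblasts, had a slope of 0.95 ± 0.09 (adjusted p = 0.000118). Comp, a matrix protein first known from cartilage, had 0.62 ± 0.08. The slope was above 0 for 5 of the 7 markers. Acta2 and Fap, also on that list, had slopes of -0.0012 ± 0.05 and -0.03 ± 0.05 and did not pass. The mean of these 7 ran from -0.63 to 0.95 over TAC arrays and from -0.16 to 0.15 over SHAM arrays. Of 8 markers of cardiac fibroblasts in general, 2 (25%) passed on Myh7, Meox1 and Mfap4. Rhythmic in SHAM were 3 (37.5%, against 9.41% of all genes), Vim, Tcf21 and Meox1. The mean of the 8 lay between -0.32 and 0.31 in TAC. Of the cardiomyocyte (10), endothelial (9), macrophage (8) and smooth muscle (7) markers, 0 passed on Myh7 in TAC. The slope was below 0 for all 10 cardiomyocyte markers, with a median of -0.062 and 5 of 10 at an unadjusted p under 0.05 (12.3% of all genes). It was above 0 for 8 of 8 macrophage markers, with a median of 0.11 and 1 of 8 at an unadjusted p under 0.05. The part of these cell types in the matrix results was not tested beyond the covariates given above.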

How the data were processed

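Left ventricle RNA was measured on 36 single-channel Affymetrix arrays. The deposited table holds log2 values, a base taken from their range, for 22690 probe sets; the sources used here do not say how probes were summarised and normalized. The median of each probe set was at most 5e-07 from 0 over the 18 arrays of either surgery, so the authors' values were centred within surgery before deposit. Array medians ran from -0.036 to 0.027. The platform annotation gave 20380 probe sets with 1 symbol, 691 with several and 1619 with none used, controls included. Of the 20380, 20351 were matched by Entrez identifier and 0 changed symbol. Probe sets of a gene were averaged into 12393 genes, 4956 of them with several probe sets; 25 of the 38 members had several.

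All tests used limma 3.58.1 in R 4.3.3, with Benjamini-Hochberg adjustment over all genes and a threshold of 0.05. Rhythm was an F-test of a 24-h cosine and sine, and the course of any shape an F-test over 6 times, each on the 18 arrays of 1 surgery. Differences used all 36 arrays. Spread compared log2 SDs of 6 TAC and 6 SHAM groups. Relations to Myh7 or Pdgfra held time as a factor. Mice are called biological replicates in the labels. On simulated data for 12393 genes, the SHAM rhythm test recovered 94.5% of 200 genes with an amplitude of 0.2, and the TAC test 85%. The difference of rhythm recovered 70% of genes with that amplitude in SHAM alone. The spread test recovered 46.5% at an SD ratio of 4, and the Myh7 test 74% at a slope of 0.2. The changed genes were drawn from all genes, with noise independent between genes, so these shares need not hold for the members. In TAC the amplitude had an SE of 0.135 for Col1a1 and 0.172 for Col3a1, against 0.034 and 0.0605 in SHAM.

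The members, gene lists and tests were chosen with earlier results of these data known, among them a larger spread of matrix genes after TAC. The rhythm and course tests were run on each surgery alone partly for that reason. Every measured member is accounted for; in each class the 2 highest and the lowest ratios of SDs and every member past a test are given, and up to 4 genes of other lists. Alternatives were quantile normalization, centring arrays on their median, the probe set with the largest SD, leaving out genes of low SD, an empirical Bayes trend with robust fitting, array weights, the replicate number as a block, 1 spread over both surgeries, absolute deviations, and leaving out arrays and replicate numbers. Chosen after seeing the data were leaving out 4 arrays with thymocyte or airway transcripts, marker covariates (atrial with white adipocyte, or endothelial), and spread relative to all genes. Promoter windows came from RefSeq (GRCm38.p6). Figures were drawn with matplotlib 3.10.9.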

Additional observations from a re-analysis of the deposited data

How the results depend on the processing

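Of 497 recomputed counts and medians, 446 kept their value within the limits set (a factor of 1.5 for counts) and 51 moved, and 0 changed direction. Of 1336 results for single called genes, 1138 kept their call and 197 lost it. The 1 that reversed was the rhythm of Dpt in SHAM with the endothelial covariate, where the peak moved by more than 6 h and the curve had an amplitude of 0.019 (adjusted p = 0.928). In SHAM, the main counts were 16 rhythmic members and 12 with a course of any shape. With 1 spread over both surgeries they were 5 and 3, the endothelial covariate gave 9 rhythmic members, and array weights gave 26 with a course. Leaving out 1 array or all arrays of a replicate number gave 4 to 18 rhythmic members and 2 to 13 with a course. In TAC, where the main counts were 0 and 0, 1 spread over both surgeries gave 4 rhythmic members and 15 with a course, and array weights 2 and 34. Quantile normalization, the empirical Bayes trend and leaving out genes of low SD each gave 1 rhythmic member, and the last also 1 with a course. Leaving out arrays or numbers gave 0 to 1 and 0 to 6. The difference of course, 0 in the main fit, was 34 with array weights, 1 without genes of low SD, and 0 to 4 without arrays or numbers, and the difference of rhythm was 0 in all settings. The weights had not converged for the TAC course, the difference of course and the Myh7 relation in TAC. Counts under alternative settings, here and below, are of members alone. The share of all genes called in the same setting is not given here, so these counts cannot be read as particular to matrix genes.

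The 1 call of spread became 13 with absolute deviations, which made 67 false calls among 227 on simulated data, and 0 with the probe set of largest SD or without the 4 arrays with thymocyte or airway transcripts. It ranged from 0 to 1 without arrays or numbers. The median log2 ratio of SDs ranged from 1.07 to 1.57 over the same fits and was 0.917 relative to the median of all genes. The 13 calls on Myh7 in TAC were 2 after quantile normalization, 8 with array weights, and 0 to 16 without arrays or numbers. Those on Pdgfra in TAC were 0 to 1. The median coefficient of member pairs stayed between 0.166 and 0.377 in SHAM and between 0.579 and 0.749 in TAC.

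The replicate numbers were not taken as pairs, since the labels do not say what they mark and not every pair of same-numbered arrays correlated above 0.1. The mean coefficients of their deviations were 0.091 to 0.109 in SHAM and -0.049 to 0.017 in TAC. In SHAM 16 of 18 arrays correlated best with their own number, and in TAC 4 of 18. This is a pattern in the data that the labels do not explain, and the main tests do not adjust for it. With the replicate block, 16 members were rhythmic and 12 had a course in SHAM, 1 was rhythmic in TAC, 7 passed for spread and 16 for Myh7 in TAC.

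Limits are few mice per group, values centred within surgery, so that no level can be compared between TAC and SHAM, and no signal over background to tell expressed from silent genes. On simulated data the spread test recovered 46.5% of genes at an SD ratio of 4 and 95% at a ratio of 8, and most members had a smaller ratio than 4.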

Other observations

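The spread among mice of the same surgery and time was also read for the gene lists beside the matrix. On the log2 scale, the median ratio of SDs (TAC over SHAM) was 1.86 over 7 activated fibroblast markers and 1.63 over 8 markers of cardiac fibroblasts, against 1.24 over the 38 matrix genes and 0.323 over all genes. It was 0.97 over 17 genes of the TGF-beta pathway, 0.74 over 13 genes of matrix turnover, 0.57 over 10 genes of collagen modification and 0.57 over 10 cardiomyocyte markers. It was 0.995 over 8 macrophage markers, with all 8 above 0. Endothelial, smooth muscle and epicardial markers had medians of 0.35, 0.35 and 0.33, close to that of all genes. In limma 0 genes of these lists passed the spread test, with 7 of the 17 TGF-beta genes, 5 of the 13 turnover genes, 5 of the 8 cardiac fibroblast, 4 of the 7 activated fibroblast and 3 of the 8 macrophage markers at an unadjusted p under 0.05, against 8.31% of all genes.

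Of the lists, rhythms in SHAM were found for 0 of 7 activated fibroblast, 0 of 10 cardiomyocyte, 0 of 7 smooth muscle, 1 of 8 macrophage and 1 of 5 epicardial markers. Over all genes the share was 9.41%. The rhythmic endothelial markers included the receptor gene Kdr, with an amplitude of 0.31 ± 0.04 (SE, n = 18) and a peak at ZT0.08, and Emcn, a surface sialoglycoprotein gene, with 0.28 ± 0.04 and a peak at ZT21.2. Atrial markers passed for 4 of 5.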
